A study of Mus musculus with 4 samples.

Results

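The acute phase response is the change in blood proteins made by the liver after injury or infection. Macrophages release interleukin-6 (IL-6) and interleukin-1 (IL-1), hepatocytes bind them through the receptors Il6ra and Il1r1, and STAT3, C/EBP and NF-κB factors then raise the genes of secreted proteins that bind haem, iron and bacterial products, clot blood or inhibit proteases. In mice the serum amyloids and orosomucoids are the strongest responders, while Crp responds little. The 31 acute phase genes examined here were taken from a list of such proteins and their upstream cytokine receptors and were matched by symbol, 31 of the 32285 mouse genes in the files. Each was found once. The rule uses no measured value, but the list was drawn up with earlier results of these libraries known.

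Single-nucleus RNA-seq counts unique molecular identifiers (UMIs), which mark single captured RNA molecules, in each nucleus. Liver nuclei came from Bl/6 mice on chow diet (CD) or low-protein diet (LPD) in 4 libraries, 1 for each combination of diet with a control or an oncogene injection. All mice were on their diet for 1 week before and 2 weeks after a hydrodynamic tail vein injection. In the oncogene groups it delivered human c-MET and an N-terminally truncated β-catenin (CTNNB1), each under the EF1α promoter, and by the study's text the controls received vector. Plasmids reach only part of the hepatocytes, and how many mice stand behind a library is not given in the sources used here. The study's general methods name young adult male mice, fasted before collection. With 1 library per group there was no test, and the 95% intervals below hold only the error of counting UMIs. They leave out how mice and preparations vary.

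The transgenes went against 1 label. Transgene UMIs numbered 100 in the library labelled CD control, 0 in that labelled CD oncogene, 0 in LPD control and 6 in LPD oncogene. The 0 of 8985 hepatocyte nuclei in CD oncogene allows a share of up to 0.0334%, and the 0 of 7415 in LPD control up to 0.0405%. The CD libraries are therefore named by their labels throughout, and differences by diet were called only where both LPD libraries stood on the same side of both CD libraries, which does not depend on which CD label is right. The libraries held 9826 to 13014 barcodes and 23172463 to 62869348 UMIs, and 42877 of 44010 barcodes were kept. Depth and mitochondrial UMIs, a sign of cytoplasmic RNA carried over with the nuclei, separated the diets: the median mitochondrial share was 2.42% and 0.983% in the CD control and CD oncogene libraries and 0.09997% and 0.127% in the LPD control and LPD oncogene libraries. Barcodes shared between libraries numbered 18 to 40 per pair.

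Levels are counts per 1000000 UMIs of mouse genes (CPM), summed over hepatocyte nuclei, of which CD control held 7526, CD oncogene 8985, LPD control 7415 and LPD oncogene 6454. Runs of 4 values keep this sequence of libraries. A level is not divided by gene length and is not compared between genes. Differences are log2((CPM + 5)/(CPM + 5)), and a call needed a 2-fold difference (log2 of 1) in a gene with at least 20 CPM in 1 of the sets compared. Of the 31 members, 22 reached 20 CPM in the hepatocytes of at least 1 library. The other 9 (Saa1, Saa2, Saa3, Orm2, Orm3, Lcn2, Cd14, Il1rn and Socs3) stayed below it in all 4.

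Among the 9 low members were the classical markers of a strong response. Saa1, the main inducible serum amyloid A, stood at 3.24, 12.7, 2.91 and 6.60 CPM and was highest in the CD oncogene library. Saa2, its neighbour on chromosome 7, stood at 1.07, 6.97, 1.90 and 1.75 CPM. In transcripts of Saa1, 31.5% of all 50-base windows also occur in another gene, mostly Saa2, so UMIs of the pair could be split or lost in counting. Saa3, made by macrophages and other cells in inflammation, was at 0.896, 0.758, 1.10 and 2.62 CPM. Lcn2, which takes iron carriers from bacteria and is raised by IL-1 and IL-6, was at 0.262, 0.189, 0.401 and 4.04 CPM, from 12, 10, 8 and 74 UMIs. Its LPD oncogene level lay above the other libraries, with a log2 ratio without pseudocount over LPD control of 3.33 (2.28 to 4.60). Socs3, the feedback inhibitor of IL-6 signalling, was at 10.6, 5.89, 2.61 and 6.77 CPM and so was highest in the library labelled CD control. Il1rn, which blocks the IL-1 receptor, gave 0.451 to 1.00 CPM and Cd14, the co-receptor for bacterial lipopolysaccharide, gave 0.0568 to 0.873 CPM.

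The serum amyloid and orosomucoid families each held a member with a clear hepatocyte level. Saa4, the serum amyloid made constitutively, was at 48.2, 49.1, 17.7 and 33.2 CPM, with both LPD libraries below both CD libraries. Orm1, the main α1-acid glycoprotein, was at 164, 121, 19.2 and 104 CPM. LPD control stood apart at the low end, and the other libraries lay within 2-fold of each other. Orm2 was at 5.05, 2.16, 0.601 and 1.26 CPM, and Orm3 at 2.64, 0.284, 0.0501 and 0 CPM, from 121, 15, 1 and 0 UMIs. In Orm1 20.4% and in Orm2 22.7% of windows were shared with another gene of the family.

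**Figure D1:**
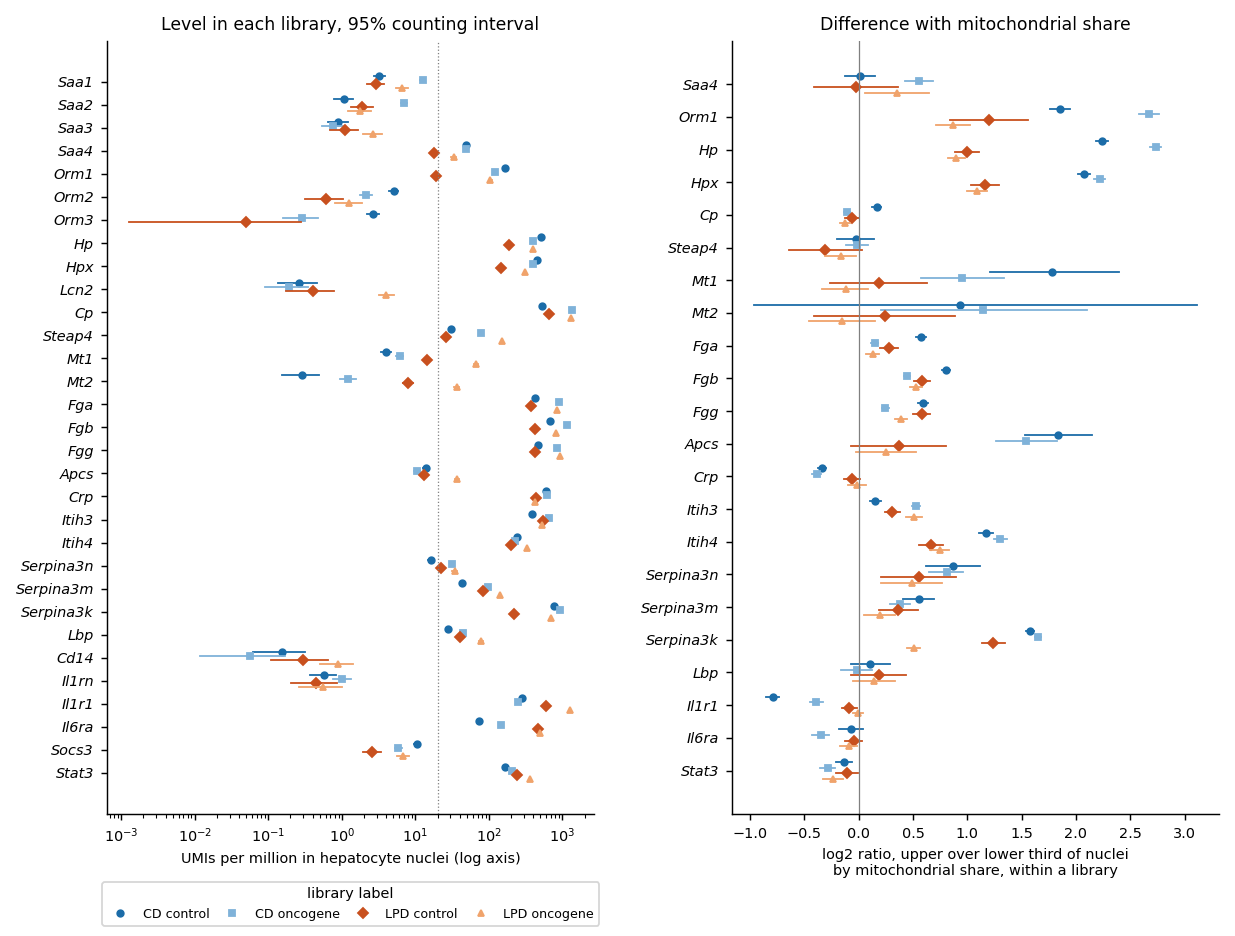
Left, CPM (log axis) of the 31 members in hepatocyte nuclei of each library, with exact 95% Poisson intervals as lines; the dotted line marks 20 CPM, and a point is left out where no UMI was counted. Right, for the 22 members that reached 20 CPM, the log2 ratio (no pseudocount, conditional 95% intervals) of the nuclei with the highest over those with the lowest mitochondrial share in the same library, each group being 1 of 3 parts of equal size. Orm1, Hp, Hpx, Apcs, Itih4 and Serpina3k lie past a log2 of 1 in both CD libraries, and Crp, Steap4, Il1r1, Il6ra and Stat3 lie at or below 0 in all 4.

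The mitochondrial share moved with some members within each library and not with others, as the plot of levels and mitochondrial share shows. Hepatocyte nuclei of each library were ranked by this share and cut into 3 parts of equal size. In CD control the lower part had a median share of 0.552% and the upper part 11.5%. Of the 22 members, 6 were at least 2-fold higher in the upper part in both CD libraries: Orm1, Hp, Hpx, Apcs, Itih4 and Serpina3k. For Hp, which binds free haemoglobin, the log2 ratio of upper to lower part was 2.24 in CD control, 2.74 in CD oncogene, 0.996 in LPD control and 0.899 in LPD oncogene. Hpx, which binds free haem, was the 1 member at least 2-fold higher in the upper part in all 4. By contrast 5 members were lower in the upper part in all 4 libraries: Crp, Steap4, Il1r1, Il6ra and Stat3. Of these 5 Il1r1 had the lowest ratio in both CD libraries, -0.79 and -0.39. Some of the other intervals took in 0, as for Steap4 in CD control (-0.198 to 0.143). The share of all genes past these limits is not given here, so the counts do not set members apart from other genes. The 6 higher members are only those past 2-fold in both CD libraries. Others rose less in all 4, such as Fgb (0.805, 0.445, 0.581 and 0.525) and Serpina3n (0.867, 0.808, 0.552 and 0.486). Because this share separates the diets, cytoplasmic RNA and diet cannot be told apart for members that rise or fall with it. Values in nuclei with at most 0.2% mitochondrial UMIs, an alternative added after the data were seen, are therefore given beside the diet results. This limit was met by 67, 1375, 5734 and 4626 hepatocyte nuclei.

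Il6ra, Il1r1 and Mt2 were called higher on LPD against either CD library in all 4 pairs, and no member was called lower. These are 3 of the 22 members with enough UMIs (13.6%), beside 2.36% of 7233 genes called higher and 1.67% called lower. The median over the 22 members of the mean of the 4 pairs was 0.13, beside 0.19 over all genes, so the median gene stood somewhat higher on LPD in CPM. Why it did was not tested. By pair the median of all genes was 0.126 to 0.242. With TMM factors, which lower this median, Il6ra was left of the 3. Leaving out LPD oncogene took away Mt2, and leaving out LPD control added Apcs and Mt1 for 5 in all. With a library left out fewer pairs are asked for, which loosens the rule for every gene. The share of all genes is not given for these runs. Both LPD libraries lay above both CD libraries for 5 members (Mt1, Mt2, Il1r1, Il6ra and Stat3), beside 46.7% of all genes, and below both for 5 (Saa4, Orm1, Hpx, Crp and Serpina3k), beside 18.1%.

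Il6ra, the chain of the IL-6 receptor that binds the cytokine, was the member that stayed called higher on LPD under each alternative run. It lies on chromosome 3 (89864059 to 89913196, minus strand, GRCm38). Its hepatocyte level was 74.2, 146, 470 and 489 CPM, so that both LPD libraries were over 3-fold above either CD library. Over the 4 pairs the log2 ratio ran from 1.66 to 2.64, and the counting intervals were narrow, from 1.65 at the lowest to 2.78 at the highest without pseudocount. The levels were 60.5, 157, 475 and 494 CPM in nuclei with at most 0.2% mitochondrial UMIs, with the LPD libraries again the highest. It also held in each lobule range: in the periportal range Il6ra was at 96.4, 149, 481 and 481 CPM, and in the pericentral range at 57.8, 136, 438 and 519 CPM. Drawn to 1000 UMIs per nucleus, the share of hepatocyte nuclei with an Il6ra UMI was 7.002%, 13.6%, 35.6% and 36.2%.

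Il1r1, the signalling receptor for IL-1, was at 281, 252, 598 and 1258 CPM, on chromosome 1 (40225080 to 40317257, plus strand). All 4 pairs gave a log2 ratio over 1, from 1.08 to 2.30. In nuclei with at most 0.2% mitochondrial UMIs the CD control level was 528 CPM, from 67 nuclei, and the LPD control level 606 CPM, so the 2-fold call was lost there. The call was also lost with TMM and median-of-ratios scaling, with the stricter filters of nuclei, and without mitochondrial genes in the denominator. The size changed less than the call: the mean of the 4 pairs was 1.69, and 1.48 to 1.63 under these settings, beside 1.19 at the 0.2% limit. LPD oncogene remained the highest library at the 0.2% limit, at 1267 CPM, and CD oncogene the lowest, at 276 CPM. Stat3, the factor that IL-6 activates, was at 168, 208, 240 and 366 CPM and passed a log2 of 1 in 1 pair, at 1.10 for LPD oncogene over CD control.

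The metallothioneins Mt1 and Mt2 bind zinc and copper and are raised by metals, glucocorticoids and IL-6. They are neighbours on chromosome 8. Mt1 was at 4.0, 6.12, 14.5 and 67.1 CPM, and Mt2 at 0.284, 1.21, 7.92 and 36.3 CPM, from 13, 64, 158 and 666 UMIs. For both genes the LPD oncogene library was far above the rest, the LPD control library came next and the CD libraries were lowest. Both reached 20 CPM only through the LPD oncogene library, so their place among the 22 already required a high value there. Mt2 was called in all 4 pairs (1.06 to 2.97) and Mt1 missed the call in 1 pair (0.81 for LPD control over CD oncogene). Without the pseudocount the same Mt2 ratios ran from 2.71 to 6.999, since the pseudocount shrinks the change of low genes. At most 0.2% mitochondrial UMIs left the order as it was, with 0, 3.66, 14.1 and 66.4 CPM for Mt1. In nuclei drawn to 1000 UMIs, 6.398% of LPD oncogene hepatocyte nuclei had an Mt1 UMI, beside 0.506%, 0.687% and 1.43% in the others. Of 5 other genes of metal sensing and transport, 3 reached 20 CPM and 0 were called by diet in either direction, while Slc30a10, a manganese exporter, was called lower under the oncogene label on LPD (-1.08).

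The promoters of this pair, from RefSeq on GRCm38.p6 (250 bases before to 50 after the annotated start), are shown because both genes moved together. Capitals mark the core of the metal response element, searched as TGCACNC or TGCGCNC on both strands. Mt1 held 3 matches and Mt2 held 4. At least 1 match stands in 25.7% of the 32851 RefSeq promoters of this length. The windows are chr8:94178839-94179138 for Mt1 and chr8:94172368-94172667 for Mt2, both on the plus strand and read 5′ to 3′.
Mt1: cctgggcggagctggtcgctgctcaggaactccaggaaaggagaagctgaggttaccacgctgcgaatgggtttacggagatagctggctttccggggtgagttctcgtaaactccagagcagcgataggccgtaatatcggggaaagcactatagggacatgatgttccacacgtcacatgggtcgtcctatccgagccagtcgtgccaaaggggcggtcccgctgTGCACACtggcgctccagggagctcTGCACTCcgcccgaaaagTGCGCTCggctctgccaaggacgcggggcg
Mt2: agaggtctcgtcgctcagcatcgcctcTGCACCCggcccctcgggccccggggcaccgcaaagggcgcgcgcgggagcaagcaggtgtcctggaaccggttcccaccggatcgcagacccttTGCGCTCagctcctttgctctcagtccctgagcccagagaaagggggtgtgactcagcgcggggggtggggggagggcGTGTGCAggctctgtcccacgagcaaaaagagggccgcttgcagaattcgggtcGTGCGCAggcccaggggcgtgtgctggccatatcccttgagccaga

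**Figure D2:**
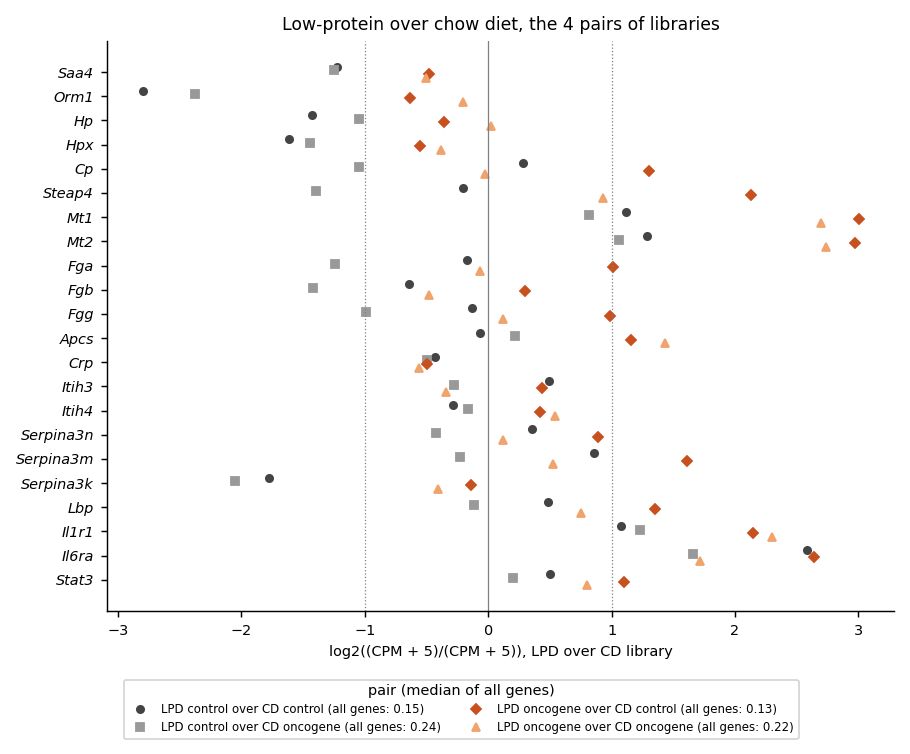
log2((CPM + 5)/(CPM + 5)) of the 22 members in hepatocyte nuclei for each of the 4 LPD to CD pairs (points); the legend gives the median of all genes in the same pair and dotted lines mark 2-fold. Il6ra, Il1r1 and Mt2 lie past 2-fold in all 4 pairs, while Saa4, Orm1, Hp, Hpx and Serpina3k lie past 2-fold to the left in both pairs with LPD control and in neither pair with LPD oncogene.

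The lower values on LPD rested on the LPD control library. Serpina3k, a protease inhibitor of the serpin A3 family, was at 766, 925, 220 and 695 CPM. Hp was at 519, 396, 189 and 402 CPM, and Hpx at 453, 401, 144 and 307 CPM. In each case LPD control was lowest and LPD oncogene was within 2-fold of both CD libraries. Without the LPD oncogene library 5 members were called lower on LPD (Saa4, Orm1, Hp, Hpx and Serpina3k), beside none with all 4 libraries. That run asks for fewer pairs, and the share of all genes it calls lower is not given here. Of the 5 members, 4 rose with the mitochondrial share in the CD libraries by the 2-fold measure above, and Saa4 did not (log2 ratios of 0.01 and 0.56). In nuclei with at most 0.2% mitochondrial UMIs LPD control was no longer the lowest library for Hp (88.6, 107, 159 and 342 CPM) and Hpx (83.6, 153, 118 and 252.5 CPM). It was still the lowest there for Saa4 (42.2, 39.9, 17.4 and 31.9 CPM), Orm1 (46.4, 35.15, 15.45 and 89.4 CPM) and Serpina3k (259, 476, 177 and 643 CPM). Crp, a pentraxin that binds bacterial surfaces, was lower in both LPD libraries by less than 2-fold, at 595, 623, 441 and 422 CPM.

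Within LPD, 12 of 22 members were called higher under the oncogene label and none lower, beside 1.55% of 6834 genes higher and 1.02% lower. These were Orm1, Hp, Hpx, Fga, Fgg, Apcs, Cp, Mt1, Mt2, Serpina3k, Steap4 and Il1r1. The median of the 22 was 1.04 on the log2 scale and that of all genes -0.025. At any size 20 of the 22 were higher under the oncogene label, beside 45.6% of all genes, and Crp (-0.06) and Itih3 (-0.06) were the exceptions. Of the 12, 4 (Orm1, Apcs, Mt1 and Mt2) reached the minimum in this pair only through LPD oncogene, where they are high, as did Saa4, which was not called. The other 8 reached it in both libraries. Whether such a difference belongs to the oncogenes, the mouse or the preparation cannot be told apart with 1 library a group, and in this library 5 of 6454 hepatocyte nuclei, or 0.0775% (0.0252 to 0.181%), held a transgene UMI.

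Steap4, a metal reductase of the iron and copper pathway that is raised in inflammation, had the largest called ratio of the members in this pair. Its level was 30.7, 76.8, 26.1 and 151 CPM, and the log2 ratio on LPD was 2.33 (without pseudocount 2.53, interval 2.40 to 2.67). Orm1 followed at 2.17, then Mt1 at 1.88, Mt2 at 1.68 and Serpina3k at 1.64. Hp and Hpx both gave 1.07. Apcs, the serum amyloid P component and a major acute phase protein of mice, was at 13.8, 10.5, 12.98 and 36.8 CPM, with a ratio of 1.22. Lbp, which carries lipopolysaccharide to CD14, was highest in the same library at 27.6, 44.4, 40.5 and 78.2 CPM but did not reach 2-fold (0.87). Il6ra was alike in the 2 LPD libraries (0.06), although Il1r1 was called (1.07).

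In the CD pair 4 of 19 members with enough UMIs were called higher under the oncogene label and none lower, beside 2.4% of 6470 genes higher and 2.23% lower. They were Cp (1.33), Steap4 (1.20), Serpina3m (1.09) and Fga (1.07). The median over the 19 members was 0.60 and over all genes -0.105. Of the 19, 14 were higher at any size, beside 38% of all genes. Among the 14, Serpina3n reached the minimum in this pair only through CD oncogene, where it is high (16.1 CPM in CD control, 31.1 in CD oncogene). The transgene UMIs lay in the library labelled CD control, so if these labels were exchanged, every direction in this pair would turn. The numbers of nuclei bear on the same doubt. The study's text gives its CD vector group more nuclei than its CD oncogene group. Here the library labelled CD control kept 10397 nuclei and that labelled CD oncogene kept 12552, the opposite order. The libraries labelled LPD control and LPD oncogene kept 9825 and 10103. For LPD the study's text has the same order. Transgene UMIs and numbers of nuclei thus both went against the CD labels. The CD directions by label can therefore not be read as directions of the oncogenes. The CD control library also had the larger mitochondrial share, and 50.2% of its placed hepatocyte nuclei were in the pericentral range, beside 26.3% in CD oncogene. With the 3 lobule ranges weighted equally, an alternative added after the data were seen, Fga lost its call and 3 members were left. With TMM factors Fgg and Il6ra joined for 6 members, and at most 0.2% mitochondrial UMIs gave 6 without Steap4.

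The 3 fibrinogen chains, which assemble into the clotting protein, moved as a set in both pairs. Fga was at 418, 886, 371 and 847 CPM, Fgb at 670, 1154, 428 and 826 CPM and Fgg at 465, 851, 425 and 924 CPM. In each chain the library labelled oncogene was above the library labelled control on both diets, and the higher libraries were CD oncogene and LPD oncogene. With the CD labels exchanged, the chains would go opposite ways on the 2 diets. The log2 ratios were 1.07, 0.78 and 0.87 on CD and 1.18, 0.94 and 1.11 on LPD for Fga, Fgb and Fgg. They differed less with mitochondrial share than Hp did, by 0.13 to 0.81. In nuclei with at most 0.2% mitochondrial UMIs Fga was at 284, 867, 353 and 821 CPM.

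Ceruloplasmin (Cp), the copper oxidase of plasma, was also higher in the library labelled oncogene on both diets. It was at 532, 1348, 649 and 1322 CPM, with ratios of 1.33 on CD and 1.02 on LPD, and at 514, 1401, 650 and 1332 CPM in nuclei with at most 0.2% mitochondrial UMIs. Its CD direction too would turn with the labels exchanged. Serpina3m was at 43.2, 97.3, 82.2 and 142 CPM and Serpina3n at 16.1, 31.1, 22.0 and 34.2 CPM, both highest in LPD oncogene and lowest in CD control. The annotated Serpina3m gene spans Serpina3k on the same strand (chromosome 12, 104338486 to 104394257), and 19.1% of its transcript windows occur in another gene, mostly Serpina3k. For Serpina3k this share was 14%, mostly with Serpina3m, so the counts of both genes are uncertain. The heavy chains of the inter-α inhibitors behaved differently from each other. Itih3 was at 386, 663, 545 and 523 CPM and was higher under the oncogene label on CD alone (0.77 on CD, -0.06 on LPD), while Itih4 was at 242, 223, 198 and 326 CPM (-0.12 on CD, 0.70 on LPD). That these effects differ between diets was not tested.

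The fibrinogen genes lie side by side on chromosome 3, and their promoters are shown because the 3 chains were each higher in the library labelled oncogene on both diets. They are RefSeq sequences on GRCm38.p6 at chr3:83025903-83026202 (Fga, plus strand), chr3:83049814-83050113 (Fgb, minus strand) and chr3:83007474-83007773 (Fgg, plus strand), each read 5′ to 3′ on its own strand. Capitals mark matches of the C/EBP motif TTGCNNAA on either strand. Fga and Fgb each held 1 match and Fgg held 0 in this window.
Fga: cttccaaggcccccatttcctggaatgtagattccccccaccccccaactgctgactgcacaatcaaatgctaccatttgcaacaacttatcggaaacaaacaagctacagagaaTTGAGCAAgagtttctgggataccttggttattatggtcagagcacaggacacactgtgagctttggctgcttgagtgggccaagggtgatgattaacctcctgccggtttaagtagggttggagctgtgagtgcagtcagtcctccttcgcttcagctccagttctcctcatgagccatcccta
Fgb: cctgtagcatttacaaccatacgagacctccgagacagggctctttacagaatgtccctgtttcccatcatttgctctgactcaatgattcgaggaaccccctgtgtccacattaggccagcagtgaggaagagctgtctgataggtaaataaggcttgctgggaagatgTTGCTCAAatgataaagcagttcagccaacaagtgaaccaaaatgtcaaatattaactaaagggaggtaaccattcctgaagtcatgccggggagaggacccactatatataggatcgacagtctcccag
Fgg: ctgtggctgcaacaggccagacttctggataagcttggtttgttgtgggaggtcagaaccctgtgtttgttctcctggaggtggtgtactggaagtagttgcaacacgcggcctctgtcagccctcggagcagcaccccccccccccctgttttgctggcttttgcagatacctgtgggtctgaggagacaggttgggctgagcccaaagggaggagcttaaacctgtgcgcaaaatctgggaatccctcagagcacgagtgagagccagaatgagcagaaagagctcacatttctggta

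Promoters were given for 25 of the 31 members. The C/EBP motif stood in at least 1 promoter of 14 of these (Cp, Fga, Fgb, Hpx, Il1r1, Lcn2, Mt2, Orm2, Orm3, Saa1, Saa2, Saa3, Saa4 and Steap4), beside 10.8% of all promoters. The STAT motif TTCNNNGAA stood in 6 (Apcs, Fga, Fgb, Itih4, Socs3 and Steap4), beside 8.3%, and an NF-κB motif in 2 (Il1r1 and Steap4), beside 8.46%. Steap4 held all 3 kinds. The metal response element stood in 6 of the 25 (Fga, Fgg, Il1r1, Mt1, Mt2 and Orm3), beside 25.7%. For this motif and the NF-κB motif the members lay near the share of all promoters. Members were counted by gene and the background by promoter, and some genes have more than 1 promoter. A match is a run of letters, not a bound site.

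**Figure D3:**
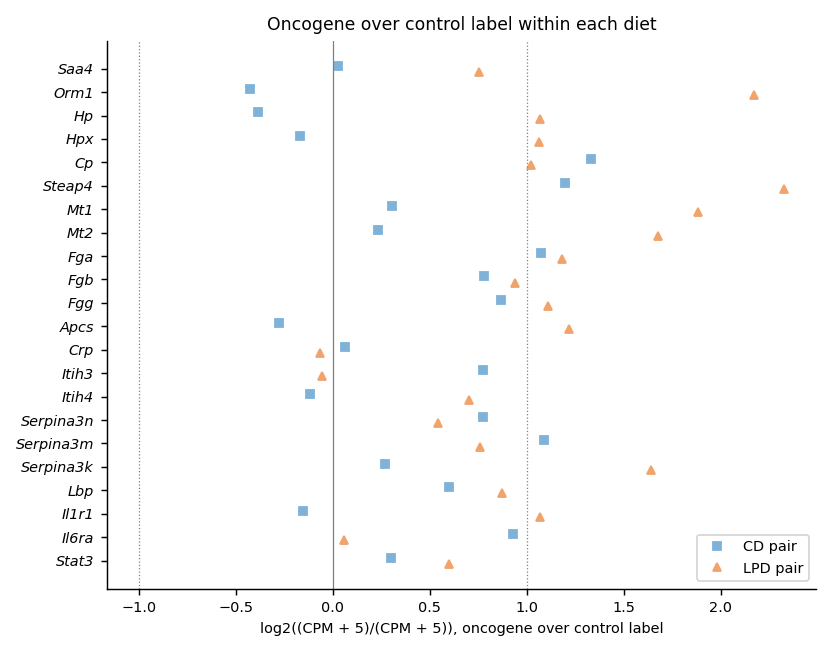
log2((CPM + 5)/(CPM + 5)) of the 22 members in hepatocyte nuclei for the library labelled oncogene over the library labelled control, on CD (squares) and on LPD (triangles); dotted lines mark 2-fold. On LPD 12 members lie past 2-fold and Steap4 is farthest at 2.33; Apcs, Mt1 and Mt2 were under 20 CPM in both CD libraries, so their squares were not counted.

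The cytokine pathways around these genes were followed in lists set alongside. Of 8 cytokine genes, IL-6 and IL-1 among them, 0 reached 20 CPM in hepatocytes. Of 15 IL-6 and JAK-STAT genes 12 did. Lifr, the receptor of leukaemia inhibitory factor, was called lower on LPD in all 4 pairs (632, 772, 223 and 284 CPM). The feedback inhibitors Socs2 and Cish, known also as growth hormone targets, were called higher under the oncogene label on LPD (2.49 and 2.06), and Socs2 on CD too (1.53). In the LPD pair Cish reached 20 CPM only through LPD oncogene, where it is high (14.5 CPM in LPD control, 76.6 in LPD oncogene). With the CD labels exchanged, Socs2 would go opposite ways on the diets. Among 16 genes of IL-1, Toll-like receptor and NF-κB signalling, 9 reached 20 CPM and Nfkbia, the inhibitor of NF-κB, was called higher on LPD (19.7, 17.3, 107 and 87.9 CPM). Nfkbia reached 20 CPM only through the LPD libraries, where it is high. Of 8 transcription factors 7 reached 20 CPM, and 0 were called in any contrast between libraries.

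Other positive acute phase genes were mixed. Of 13, 11 reached 20 CPM for the diet contrast and 0 were called by diet. Fgl1, a fibrinogen-like protein of the liver, was called higher under the oncogene label on CD (1.21) and LPD (2.45), with 86.3, 206, 84.7 and 484 CPM. Lrg1, a leucine-rich glycoprotein raised by IL-6, was called on LPD alone (1.60, against -0.75 on CD). Hamp, which encodes the iron hormone hepcidin, went opposite ways by the labels, at 2.57 on CD and -2.17 on LPD (74.7, 469, 179 and 35.8 CPM). With the CD labels exchanged, Hamp would go the same way on both diets and Fgl1 would go opposite ways. Of 9 negative acute phase genes, Rbp4, which carries retinol, was called higher on LPD and Cyp3a11, a drug-metabolising enzyme, lower. Cyp3a11 was also called higher under the oncogene label on CD (1.39), and Igf1, the growth factor that growth hormone raises, was called higher under the oncogene label on LPD (1.51).

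Glucocorticoids act together with IL-6 on many acute phase genes. Of 8 glucocorticoid targets 7 reached 20 CPM, with a median diet ratio of 1.81 beside 0.189 over all genes. Called higher on LPD were 3, beside the 2.36% of all genes given above: Fkbp5 (47.3, 31.4, 231 and 869 CPM), Tsc22d3 (80.1, 82.6, 291 and 306 CPM) and Per1 (1.55, 2.41, 54.7 and 41.7 CPM). Per1 is also a clock gene, and it reached 20 CPM only through the LPD libraries, where it is high. Fkbp5 and Zbtb16 were called higher under the oncogene label on LPD (1.89 and 1.355), and Tat, an enzyme of tyrosine breakdown, was called lower there (-1.82). Zbtb16 was called higher on CD too (1.53), a direction that would turn with the CD labels exchanged.

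Along the lobule, hepatocyte nuclei were placed in a periportal, a midlobular and a pericentral range by markers that held none of the members. The ranges are 3 equal parts of a score over all libraries, not cell types, and 15.7 to 22.1% of nuclei lay near a limit between them. No member was called in either direction in all 4 libraries, beside 1.14% of 7541 genes called pericentral and 0.756% called periportal. At any size, 16 of 22 members were lower in the pericentral than in the periportal range in all 4 libraries, beside 16.4% of all genes, and 1, Il1r1, was higher in all 4, beside 25.8%. The median of the members was -0.39, -0.43, -0.27 and -0.51, and that of all genes lay between -0.003 and 0.079.

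Hpx had the steepest periportal gradient of the 22 members in both CD libraries. It fell from 717 to 287 CPM in CD control, from 558 to 211 in CD oncogene, from 164 to 102 in LPD control and from 441 to 194 in LPD oncogene, so it missed the call in LPD control alone (-0.65). Orm1 fell from 208 to 134, from 159 to 73.7, from 27.0 to 9.92 and from 135 to 73.5 CPM. The fibrinogen chains fell less, by log2 ratios of -0.19 to -0.60. Il1r1 ran the other way and was highest in the pericentral range, at 184 and 360 CPM in CD control, 233 and 284 in CD oncogene, 521 and 746 in LPD control and 1159 and 1427 in LPD oncogene. Mt1 fell from 98.8 to 33.7 CPM (-1.42) and Mt2 from 55.8 to 14.6 CPM (-1.64) in LPD oncogene. In the other libraries both were under 20 CPM, where the pseudocount shrinks a ratio. Without it Mt1 was at -0.72, -1.10, -0.36 and -1.55, and Mt2 at -2.15 (from 3 and 4 UMIs), -1.14, -0.65 and -1.94. Saa4 differed between libraries, lower in the pericentral range in CD oncogene (-0.56) and higher in LPD control (0.94). Whether these gradients differ between libraries was not tested.

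**Figure D4:**
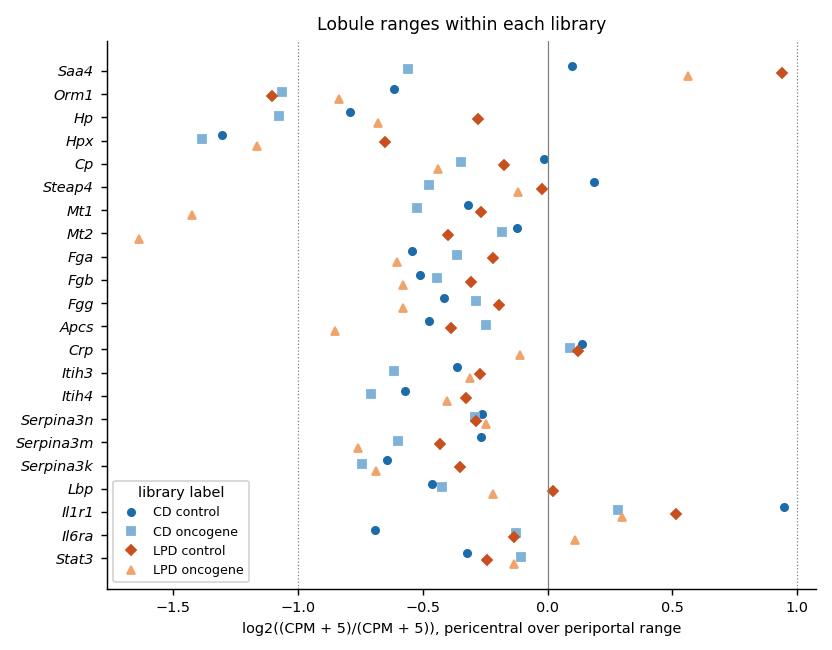
log2((CPM + 5)/(CPM + 5)) of the 22 members in the pericentral over the periportal range of hepatocyte nuclei, 1 point for each library; dotted lines mark 2-fold. Most points lie to the left of 0, Il1r1 lies to the right in all 4 libraries, and Mt1 and Mt2 of LPD oncogene lie farthest to the left.

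Transgene-bearing nuclei could be compared with the other hepatocyte nuclei in 1 library. In the library labelled CD control, 86 hepatocyte nuclei (1.14%, exact binomial interval 0.915 to 1.41%) had a transgene UMI, and 83 of the 86 lay in the pericentral range. The markers of this range include β-catenin targets such as Glul and Axin2, which the transgene itself can raise. The range is therefore not a position for these nuclei. The study places oncogene-expressing hepatocytes mostly in the periportal and middle zones, with expression like that of pericentral cells. They were deeper than the rest (median 7338 against 5018 UMIs). Of 18 members with enough UMIs, 4 were at least 2-fold lower in these nuclei (Hp, Hpx, Itih4 and Serpina3k), beside 2.2% of 6631 genes, and 1 was higher (Il1r1), beside 1.93%. Within the pericentral range the count of lower members was 1 (Hp, 152 against 403 CPM, log2 -1.38), beside 1.04% of 6604 genes, and 0 were higher, beside 0.515%. There Il1r1 was at 654 against 350 CPM, a log2 ratio of 0.90 (without pseudocount 0.77 to 1.03), and the fibrinogen chains lay at -0.36 to -0.59. Crp stood at 630 against 622 CPM, with an interval of -0.11 to 0.15 on the log2 scale. These nuclei share 1 library and are not replicates, and the part of the mitochondrial share in these values was not tested.

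The share of hepatocyte nuclei with a UMI was also taken at 1000 UMIs each, and follows each gene's own level. Fgb had a UMI in 44.4%, 65.8%, 34.2% and 55.3% of nuclei, and Cp in 39.5%, 70.3%, 43.1% and 66.2%. The variance over the mean, which is 1 for counts with no spread beyond sampling, was 1.64 for Cp and 1.66 for Il1r1 in LPD oncogene, and 1.20 and 1.08 for the same genes in CD oncogene. The mean UMIs per nucleus were 1.34 and 1.32 for Cp in LPD oncogene and CD oncogene, and 1.24 and 0.242 for Il1r1. This measure can grow with the mean, so the Il1r1 values do not compare spread alone. For Il1r1 in CD control it was 1.195 at a mean of 0.279. Saa1 had a UMI in 0.309%, 1.51%, 0.143% and 0.667% of nuclei. Without drawing to a common depth the share for Fgb was higher in every library, since deeper nuclei give more UMIs.

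In other cell classes most members stayed within what free RNA gives. Free hepatocyte RNA reaches every droplet, so the CPM of a member in a class over its CPM in hepatocytes was set against the range of this ratio over hepatocyte reference genes, such as Apoa2 and Ambp. In Kupffer nuclei, the resident macrophages, that range ran from 0.210 to 1.43 in CD control and from 0.098 to 1.06 in LPD oncogene. Of the 31 members, 3 stood above it in at least 3 of the 4 libraries (Steap4, Il6ra and Cd14), beside 23.2% of 22114 genes with a UMI in these classes. A value counted as above only where the lower counting limit of its ratio passed the highest reference gene. Hp, Hpx and the fibrinogen chains did not do so in Kupffer nuclei of any library.

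Steap4 was high in stellate nuclei, the retinoid-storing cells that can make matrix. Its level there was 214, 155, 257 and 390 CPM, or 6.97, 2.02, 9.86 and 2.58 times that in hepatocytes, with the highest reference gene at 1.07 to 1.35. It was above the range in all 4 libraries. Il6ra was above the range in the monocyte or dendritic class, at 281, 280, 774 and 754 CPM and 3.79, 1.92, 1.65 and 1.54 times the hepatocyte level, in 3 of the 4 libraries. The exception was CD oncogene, and LPD control held only 51 such nuclei. This call was lost under each stricter filter of nuclei, without the 8% of nuclei with the highest Scrublet doublet score, and without Harmony. In Kupffer nuclei Il6ra was at 293, 201, 486 and 460 CPM and stood above the range in CD control alone. Cd14 in Kupffer nuclei rested on 1, 6, 3 and 6 UMIs, which gave 3.85, 15.7, 10.4 and 7.51 CPM against 0.0568 to 0.873 CPM in hepatocytes. It was above the range in 3 libraries, not in CD control, and the call was lost when clustering left out Harmony. Sinusoidal endothelial nuclei held 1, 0, 0 and 1 Cd14 UMIs.

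**Figure D5:**
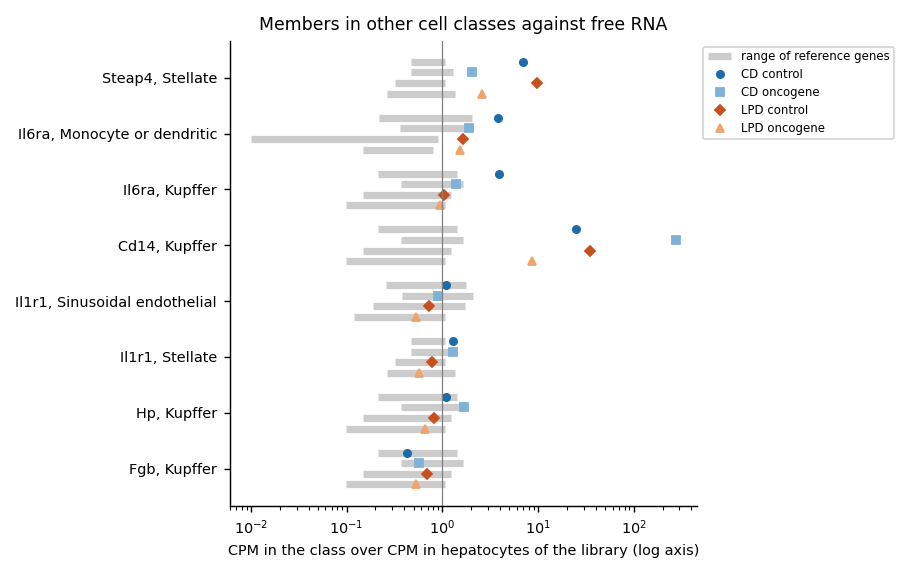
CPM in another cell class over CPM in hepatocytes of the same library (log axis) for 8 combinations of member and class; grey bars give the range of the same ratio over the hepatocyte reference genes, with a lowest ratio of 0 drawn at 0.01, and points are the libraries. Steap4 in stellate nuclei lies right of the bars in all 4 libraries, and Fgb in Kupffer nuclei lies within them in all 4, while Hp in Kupffer nuclei of CD oncogene lies at 1.69, just past a bar that ends at 1.62.

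Il1r1 had a high level in sinusoidal endothelial nuclei, at 304, 225, 439 and 663 CPM, yet these values were 1.08, 0.895, 0.733 and 0.527 times those in hepatocytes and inside the reference range, so they cannot be told apart from free RNA. Stat3 was above the range in the monocyte or dendritic class in both LPD libraries, at 522 and 633 CPM, and not in the CD libraries. Mt1 in sinusoidal endothelial nuclei of LPD control was at 46.7 CPM, 3.21 times its hepatocyte level, and above the range in that library alone.

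A cluster of 1824 nuclei led by haemoglobin genes, with a median mitochondrial share of 5.76%, was left unnamed and out of the hepatocytes. Hp stood there at 1890, 2985, 1510 and 2561 CPM and Saa1 at 10.6, 149, 57.3 and 61.7 CPM, both above the hepatocyte levels in every library. Il6ra was lower there, at 51.8, 53.7, 172 and 181 CPM, with the LPD libraries again highest.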

How the data were processed

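The authors deposited UMI counts per gene and nucleus barcode, not normalized, made with Cell Ranger 9.0.1 per the file headers. Reads were aligned to mm10 with human c-MET and CTNNB1 added, and the study's analysis used Seurat 5. Whether intronic reads and strand entered the counts is not given in the sources used here. The members and gene lists were chosen with earlier results of these data known.

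Nuclei with 200 to 7000 genes and at most 21% mitochondrial UMIs were kept. Clusters came from 5000 variable genes without members and transgenes, principal components, Harmony (in numpy), 23 components, 20 neighbours and Louvain at resolution 0.4 (igraph 0.11.9). A cluster was named where at least 3 markers and 50% of a list were raised 3-fold, a rule set after the data were seen, so names may differ from the study's. Doublets were taken to be clusters that carried another class's markers and 75% or more of the hepatocyte markers' level, and were left out. Scrublet (scanpy 1.11.5) marked 0, 0, 1 and 0 nuclei and so did not work. The doublet alternative instead removed the 8% of nuclei per library with the highest Scrublet score, whether or not they were doublets. Lobule ranges are 3 equal parts of a score of 12 pericentral and 12 periportal markers at 1000 UMIs per nucleus.

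UMIs were summed per library. Intervals are exact Poisson, binomial (Clopper-Pearson) or conditional. TMM factors came from edgeR 4.0.16. Fold calls were run on simulated Poisson counts with a known fold set in both LPD libraries. Variation between mice or preparations was not simulated, so this checks the calculation alone. All members are described. Other genes were named only from preset lists and only where called, or as a marker or reference gene. Positions are from GENCODE vM21. Alternatives covered filters, scaling, pseudocount, clustering, doublets, lobule scores and each library left out. Counting the unnamed cluster as hepatocytes, the 0.2% limit, equal lobule weights and CPM without mitochondrial genes were added after the data were seen.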

Additional observations from a re-analysis of the deposited data

Results flagged for a closer look

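For 5 members the ratio differed in direction between the diets under the same contrast, oncogene over control label, with both counting intervals clear of 0 on opposite sides. The log2 ratios on CD and LPD were -0.42 and 2.17 for Orm1, -0.38 and 1.07 for Hp, -0.17 and 1.07 for Hpx, -0.28 and 1.22 for Apcs, and -0.15 and 1.07 for Il1r1. The difference itself was not tested, since each group is 1 library. Orm1, Hp, Hpx and Apcs are among the 6 members that were at least 2-fold higher in nuclei with a high mitochondrial share in both CD libraries, and that share was higher in the library labelled CD control (2.42%) than in CD oncogene (0.983%). Apcs was under 20 CPM in both CD libraries. In nuclei with at most 0.2% mitochondrial UMIs the CD order was reversed for Hp (88.6 CPM in control, 107 in oncogene), Hpx (83.6 and 153) and Apcs (4.97 and 5.60). Their opposite directions were thus not seen there. The CD control values came from 67 nuclei, with 107 UMIs for Hp, 101 for Hpx and 6 for Apcs. Whether the order truly turned was not tested, and 6 UMIs are too few to give a direction for Apcs. With the lobule ranges weighted equally Il1r1 stood at 0.015 on CD. An exchange of the CD labels would turn the CD direction for all 5. Transgene UMIs numbered 100 in the library labelled CD control and 0 in that labelled CD oncogene, which kept 10397 and 12552 nuclei. The study's text gives the larger number of CD nuclei to its vector group. Transgene UMIs and numbers of nuclei thus both went against the CD labels.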

How the results depend on the processing

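The count of 3 members higher on LPD in all 4 pairs fell to 1 with TMM factors and to 1 with median-of-ratios factors, where Il6ra was left. The median of all genes over the 4 pairs, 0.126 to 0.242 in CPM, was -0.014 to 0.062 with TMM factors. Leaving out each library in turn gave 2 (without LPD oncogene) to 5 (without LPD control) members higher on LPD, 0 to 5 (without LPD oncogene) lower, and 0 to 1 (Hpx, without LPD control) called periportal. These runs loosen the rule for all genes, whose share is not given for them. The count of 3 members above the free RNA range became 1 when clustering was done without Harmony and 5 when 2 of the 4 libraries sufficed. Il6ra was lost with both filters of nuclei and without the 8% of nuclei with the highest Scrublet score. Other counts stayed within 1.5 times, among them 11 to 13 members higher under the oncogene label on LPD and 3 to 6 on CD. No called ratio of a single member changed sign under these alternatives, and 776 of 1039 recomputed ratios stayed within the spread between pairs or libraries or the counting interval. No paired analysis was possible because each group holds 1 library. The shallower LPD libraries limit the low members, such as Orm3 with 1 UMI in LPD control.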
